A study of Homo sapiens with 10 samples.

Results

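The regions described here are the ChIP-seq peaks of ERG and of its co-activator EWS that lay in a block on the long arm of human chromosome 1. A peak of any of the 7 deposited lists was a member when its centre fell in positions 188000000 to 190000000 (the lower interval) or 195000000 to 202000000 (the upper interval) of build hg19, 9 Mb in all. By this rule 917 of 30301 listed peaks were members, 914 of them in lists of RWPE1 cells and 3 in lists of VCaP cells. The members were chosen by peak counts per megabase in these same lists, high in RWPE1 and low in VCaP, so the number of peaks per list is a description and was not tested.

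RWPE1 is a cell line from normal prostate, made to express wild-type ERG or the point mutant ERG P436A in a stable manner and kept under selection with puromycin or hygromycin. VCaP is a prostate cancer line, was not treated, and is known to make ERG from a gene fusion of its own. RWPE1 with wild-type ERG had 2 ERG lists (replicates 1 and 2) and 1 EWS list. RWPE1 with ERG P436A had 1 ERG and 1 EWS list, and VCaP likewise. The labels do not say whether the RWPE1 lines are single clones, what promoter drives ERG in them, or whether the 2 replicates came from separate cultures. Only these replicates allow any check of one list against another of its group, and read depth is unknown. Peak positions cannot test the labelled cell type. Both P436A lists and the VCaP EWS list hold no peak wider than 501 bp, while the other 4 lists do. How peaks were called is not given in the sources used here, so in every comparison between these 3 lists and the others the group and a difference in peak calling cannot be told apart.

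ERG is a transcription factor of the ETS family, whose members bind DNA at a short GGA core, and it is brought under androgen control by gene fusions in many prostate cancers. EWS, the product of EWSR1, is an RNA-binding protein that can act as a co-activator, and in Ewing sarcoma a part of it is fused to an ETS factor. The series is about an interaction between EWS and ETS factors such as ERG, and its RWPE1 lists set the mutant ERG beside the wild-type protein. In RefSeq order this stretch of chromosome 1 runs from BRINP3 through KCNT2, ASPM, CRB1 and NEK7 to PTPRC (the leukocyte phosphatase CD45) and NR5A2 (a nuclear receptor). It then passes ZNF281, KIF14, CACNA1S, TNNT2, CSRP1 and RNPEP and ends near ELF3, an ETS factor of epithelial cells. This gene table is of the later assembly GRCh38.p14, so no peak was assigned to a gene and no sequence was read under a peak.

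The block was densest in the EWS list of RWPE1 cells with wild-type ERG. It held 561 of 5703 EWS peaks there (9.84%, exact 95% interval 9.08% to 10.6%), or 62.3 peaks per Mb. Replicate 1 of wild-type ERG had nearly the same share of its list in the block, 184 of 1901 peaks (9.68%, 8.39% to 11.1%). Replicate 2 of the same group had 19 of 1953 (0.973%, 0.587% to 1.52%). These counts are among those that chose the block, so the intervals describe counting error and are not a test between lists.

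In cells with ERG P436A the ERG list had 71 of 1746 peaks in the block (4.07%, 3.19% to 5.10%) and the EWS list 79 of 1786 (4.42%, 3.52% to 5.48%). The share of the mutant ERG list lay inside the range spanned by the 2 wild-type replicates. Of the chromosome 1 peaks, the block took 45.3% in replicate 1, 46.5% in wild-type EWS, 26.7% in ERG P436A, 30.6% in EWS with P436A and 14.4% in replicate 2.

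VCaP lists were nearly empty in the block. VCaP ERG had 3 of 7712 peaks there (0.0389%, 0.00802% to 0.114%), and VCaP EWS had 0 of 9500, which allows a share of up to 0.0316%. The nearest VCaP EWS peak below the upper interval lay 463 kb before it and the nearest above it 152 kb after it. Of the 9 megabases of the block, 8 were empty in VCaP ERG and 9 in VCaP EWS, and the median occupied megabase of the VCaP ERG list held 2 peaks. This median leaves out megabases with no peak. Over the whole lists 1683 megabases held a VCaP ERG peak and 1324 a VCaP EWS peak, and the fullest held 222 and 254. The empty megabases of the genome were not counted, so how unusual the empty megabases of the block are was not tested.

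**Figure D1:**
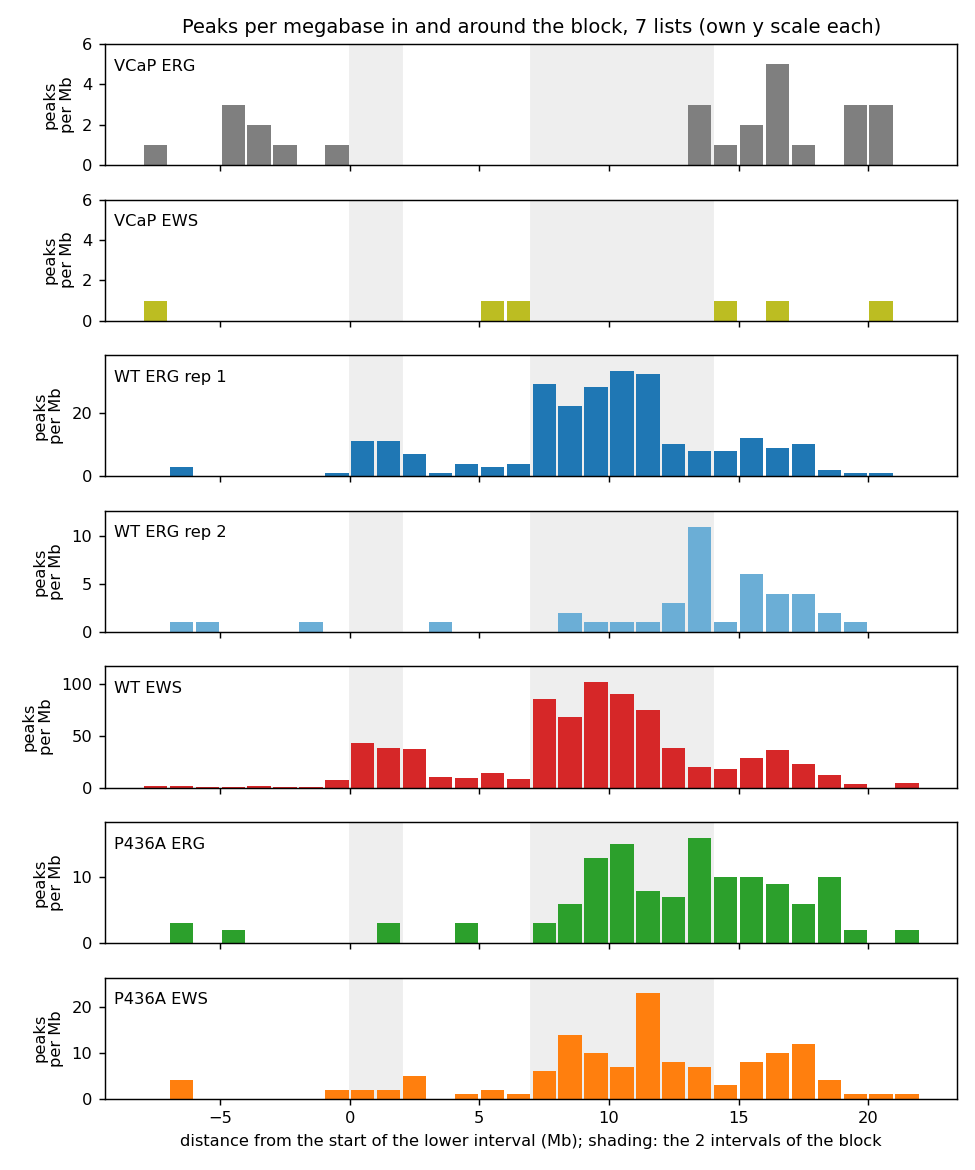
Peaks per megabase (bars, each panel with its own y scale from 0) against distance from the start of the lower interval in Mb, for the 7 lists; grey marks the 2 intervals. Replicate 1 and wild-type EWS rise at the start of both intervals and reach 33 and 102 peaks per Mb, replicate 2 reaches 11 in the last megabase, and VCaP EWS has no peak in the grey areas.

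Along the block the lists did not fill the same megabases. Replicate 1 had 29, 22, 28, 33 and 32 peaks in the first 5 megabases of the upper interval, and 10 and 8 in the last 2. Wild-type EWS had 86, 68, 102, 91 and 75, followed by 38 and 20. Both lists were thus high over the first 5 megabases and lower after them. These 5 bins were the 5 fullest of the 982 megabases with a peak in replicate 1 and of the 1748 in wild-type EWS.

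Replicate 2 had the opposite course, with 0, 2, 1, 1 and 1 peaks in the first 5 megabases, then 3 and 11. In the last megabase lay 57.9% of its block peaks (11 of 19, exact 95% interval 33.5% to 79.7%), against 4.35% of those of replicate 1 (8 of 184, 1.90% to 8.39%). In that megabase replicate 2 had more peaks than replicate 1, so the gap between the replicates came from the rest of the block. ERG P436A had 3, 6, 13, 15 and 8 peaks, then 7 and 16, and so was high both in the middle and in the last megabase. EWS with P436A had 6, 14, 10, 7 and 23, then 8 and 7, and the last of these 5 was the fullest of 932 in its list.

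The lower interval held members mainly of wild-type EWS and replicate 1. It had 81 wild-type EWS and 22 replicate 1 peaks, against 3 mutant ERG peaks, 4 EWS peaks of the mutant cells and 0 in replicate 2 and both VCaP lists. At its lower limit wild-type EWS went from 7 peaks in the megabase before it to 43 in the megabase after it, and replicate 1 from 1 to 11. Beyond its upper limit the next megabase still held 37 wild-type EWS and 7 replicate 1 peaks, so this limit cuts through a crowded stretch. The 5 Mb between the intervals held 78 wild-type EWS and 19 replicate 1 peaks. Per Mb this was 15.6 and 3.8, against 68.6 and 23.1 in the upper interval.

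At the start of the upper interval the step was sharp, from 8 to 86 peaks per Mb in wild-type EWS and from 4 to 29 in replicate 1. At its end these lists had no such step, with 20 wild-type EWS peaks in the megabase before and 18 after, and 8 and 8 in replicate 1. ERG P436A went from 16 to 10 and EWS with P436A from 7 to 3. Replicate 2 fell from 11 peaks to 1, and the megabase after that held 6. In the 4 Mb after the upper interval, outside the rule, ERG P436A had 35 peaks, EWS with P436A 33, replicate 1 had 39, replicate 2 had 15 and wild-type EWS 106. For the mutant ERG list this was 8.75 per Mb, close to the 9.71 per Mb of its upper interval. It was 8.25 against 10.7 per Mb for EWS with P436A and 3.75 against 2.71 for replicate 2. For replicate 1 it was 9.75 against 23.1 and for wild-type EWS 26.5 against 68.6, and both lists were already lower before this limit. The upper end of the block thus does not mark an end of crowding in any of the RWPE1 lists.

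Counted in 9 bins of 1 Mb, replicate 1 and wild-type EWS had a Spearman correlation of 0.87, and replicate 1 and replicate 2 one of −0.38. The ERG P436A list had 0.71 with replicate 2 and 0.10 with replicate 1. In 90 bins of 100 kb these values were 0.53, −0.12, 0.32 and 0.17. Such correlations across bins are descriptions, since neighbouring bins share a library and local sequence and are not independent. In the 100 kb bins wild-type EWS had a peak in 88 of 90, replicate 1 in 75, EWS with P436A in 45, ERG P436A in 41 and replicate 2 in 14. The fullest such bin of wild-type EWS, 195400001 to 195500000, held 16 of its peaks and was also 1 of the 2 fullest bins of replicate 1, with 7. ERG P436A had its fullest bin elsewhere, at 201200001 to 201300000 with 7 peaks, EWS with P436A at 199800001 to 199900000 with 5, and replicate 2 at 201900001 to 202000000 with 4.

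**Figure D2:**
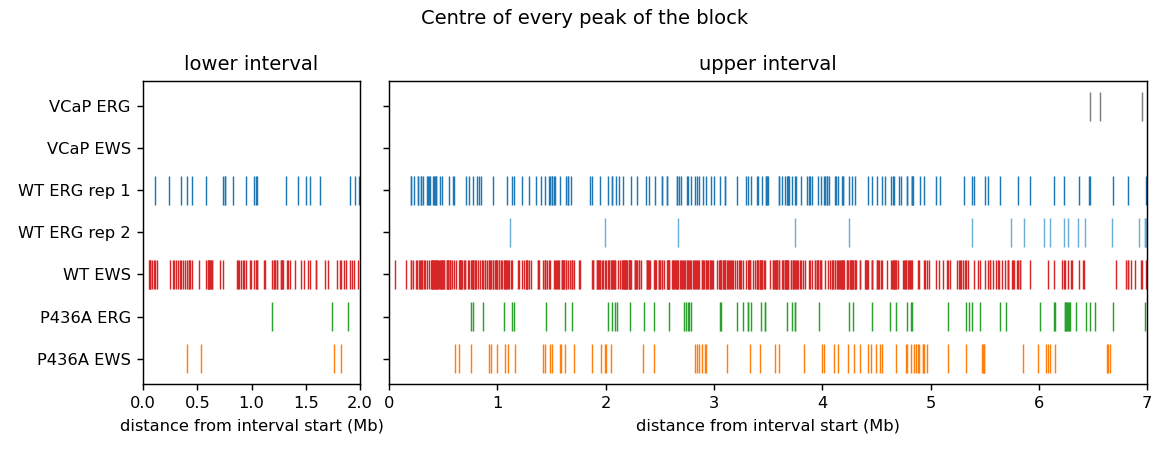
Centre of each of the 917 peaks of the block (1 tick per peak, 1 row per list) against distance from the start of the lower or upper interval in Mb. Wild-type EWS and replicate 1 ticks run through both intervals, replicate 2 ticks gather at the right end, and the 3 VCaP ERG ticks all lie in the last megabase.

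The lists gave the members as separate peaks and not as 1 wide domain. How peaks were called is unknown and the P436A lists hold none over 501 bp, so this describes the lists only. Spacing and coverage also follow the peak density that chose the block. The median distance between neighbouring peak centres was 9.76 kb in wild-type EWS (quartiles 4.54 and 19.1 kb), 32.3 kb in replicate 1 and 156 kb in replicate 2. In the P436A cells it was 58.4 kb for ERG and 42.5 kb for EWS. Even the wild-type EWS peaks covered only 4.09% of the 9 Mb, and replicate 1 peaks covered 1.24%. The closest neighbours were 0.995 kb apart in wild-type EWS and 1.11 kb in replicate 1.

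Peak width was not part of the rule and differed between the block and the rest of a list. In wild-type EWS 381 of 561 block peaks were wider than 500 bp (67.9%, 63.9% to 71.8%), against 48.0% of the whole list. Outside the block 2359 of 5142 were (45.9%, 44.5% to 47.3%), so the odds were 2.50 times higher inside (2.07 to 3.02; Fisher's exact test, two-sided, adjusted over 7 tests, p = 1.68e-22). Replicate 1 went the other way. Of its block peaks 116 of 184 were wider than 500 bp (63.0%, 55.6% to 70.0%), against 73.2% of the whole list and 74.3% outside (1276 of 1717), which gave odds 0.590 times those outside (0.425 to 0.824; Fisher's exact adjusted p = 0.00360). Set against the rest of chromosome 1 alone, the replicate 1 odds ratio was 0.618 and no longer passed (Fisher's exact adjusted p = 0.0731), while that of wild-type EWS was 1.90.

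Replicate 2 had 8 of 19 such peaks in the block (42.1%, 20.3% to 66.5%), against 53.1% of its list, and no difference was detected (odds ratio 0.640, 0.222 to 1.76; Fisher's exact adjusted p = 0.509). With no peak over 501 bp, the P436A lists were not tested for width. In bp, the median block peak measured 553 in wild-type EWS against 499 outside, and 520.5 in replicate 1 against 621. These tests compare peaks of 1 list with each other, and peaks are not replicates. Inside the block the shares of wide peaks in wild-type EWS and replicate 1 lay close together, and the lists were farther apart outside it.

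**Figure D3:**
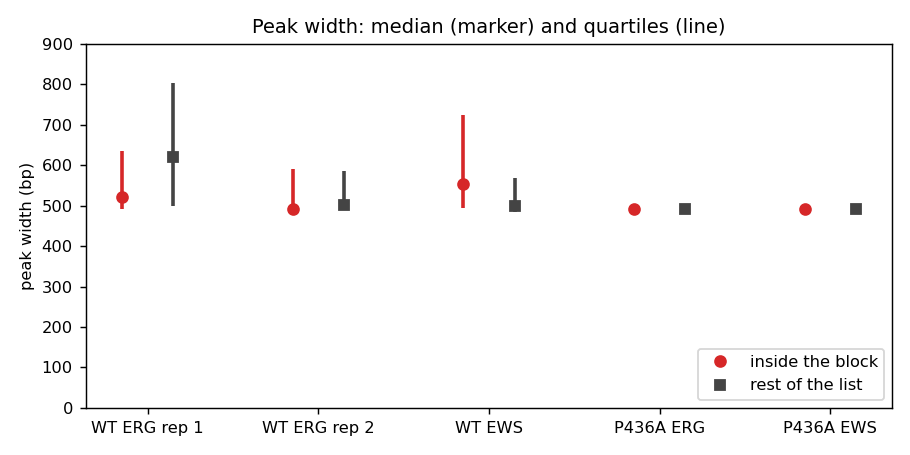
Peak width in bp (y axis from 0) for the 5 RWPE1 lists, inside the block (circles) and in the rest of the list (squares), as median with a line between the quartiles. The wild-type EWS median is higher inside (553 against 499 bp), the replicate 1 median lower (520.5 against 621 bp), and the P436A medians lie between 491 and 493 bp in both places.

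Sharing of exact sites was asked next, a peak counting as shared if it overlapped one in another list by 1 bp or more. A share grows with the number of peaks the other list has nearby, which the choice of the block fixed. The same holds for counts of peaks within 10 kb of a peak of another list. Shares inside are therefore given beside those of the whole list with no test between them.

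The 2 wild-type ERG replicates shared 1 site in the block. This was 1 of 184 replicate 1 peaks (0.543%, 0.0138% to 2.99%) and 1 of 19 replicate 2 peaks (5.26%, 0.133% to 26.0%), against 6.05% and 5.94% of the whole lists. By their centres 10 of 19 replicate 2 peaks, the shared site among them, lay within 10 kb of a replicate 1 peak, against 10.8% of its whole list. The median distance over all 19 was 9.49 kb.

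ERG P436A shared 11 sites of the block with replicate 1 and 1 with replicate 2. It had a peak at 11 of 184 replicate 1 peaks (5.98%, 3.02% to 10.4%), against 11.6% of that whole list, and at 1 of 19 replicate 2 peaks (5.26%), against 6.81%. The 2 shares were not told apart (odds ratio 1.14, 0.149 to 52.0; Fisher's exact adjusted p = 1), and with 19 peaks in replicate 2 the interval is wide. The replicates also met different densities of ERG P436A peaks. In the last megabase, its fullest of the block with 16 peaks, lay 11 of 19 replicate 2 peaks but 8 of 184 of replicate 1. Replicate and position in the block thus cannot be told apart here. Seen from the mutant, 11 of 71 block peaks (15.5%, 8.0% to 26.0%) lay at a replicate 1 peak, against 12.7% of its list, so this share was close to its background. Thus 60 of the 71 ERG P436A peaks of the block were at positions that replicate 1 did not list.

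Wild-type ERG and EWS peaks coincided at many sites of the block, where EWS peaks were also dense. Of the replicate 1 peaks 45 of 184 had a wild-type EWS peak (24.5%, 18.4% to 31.3%), against 9.26% of the whole list, and these 45 made up 25.6% of all 176 such replicate 1 peaks. The block held 9.68% of the replicate 1 list. Outside it 7.63% of replicate 1 peaks (131 of 1717) had a wild-type EWS peak. Replicate 2 had a wild-type EWS peak at 2 of 19 (10.5%, 1.30% to 33.1%), against 3.23% of its list. The replicates were not told apart here (odds ratio 2.74, 0.612 to 25.4; Fisher's exact adjusted p = 0.444). They did not meet the same EWS density. Of the replicate 2 peaks 11 of 19 lay in the last megabase, which had 20 wild-type EWS peaks. Of the replicate 1 peaks 144 of 184 lay in the first 5 megabases of the upper interval, with 68 to 102 each. Replicate and position in the block thus cannot be told apart in this test. Closeness follows the same density, since neighbouring wild-type EWS centres of the block were a median of 9.76 kb apart. Within 10 kb of a wild-type EWS peak lay 148 of 184 replicate 1 peaks, against 23.4% of the whole list, with a median distance of 2.32 kb. For replicate 2 this held for 12 of 19, against 9.83% of its list. From the side of EWS, 45 of 561 wild-type EWS peaks lay at a replicate 1 peak (8.02%, 5.91% to 10.6%), against 3.03% of that list.

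In cells with the mutant, no listed ERG peak of the block overlapped a listed EWS peak. Of the 71 ERG P436A peaks 0 overlapped an EWS peak of P436A cells, which allows a share of up to 4.23%, and the whole-list share of 2.18% lies below this limit. A share near that background was therefore not detectable as different at this number of peaks. The nearest pair of centres was 0.573 kb apart, and 19 of 71 lay within 10 kb, against 8.19% of the whole list.

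Wild-type and mutant were compared over the 203 wild-type ERG peaks of both replicates, with the 1 pair they shared merged. A wild-type EWS peak lay at 47 of them (23.3%, 17.6% to 29.7%; 6.02% over the whole lists) against 0 of 71 for ERG P436A with its own EWS list. This pair of values is a description, because the wild-type EWS list had 561 block peaks against 79 and that density is what the block was chosen on. When the wild-type EWS list was used for both ERG forms, ERG P436A had EWS at 15 of 71 peaks (21.1%, 12.3% to 32.4%; 4.93% over its list), and 54 of 71 lay within 10 kb of one, against 18.1%. These took in 15 of the 561 wild-type EWS peaks (2.67%), against 1.51% of that list. The odds ratio was then 1.13 (0.567 to 2.36; Fisher's exact adjusted p = 1). With this common EWS list no difference between the ERG forms was detected. The interval leaves room for odds from 0.567 to 2.36 times those of the mutant. A common list does not make local EWS density equal, because the ERG lists were spread differently along the block. Per megabase, wild-type EWS had a Spearman correlation of 0.87 with replicate 1 and 0.12 with ERG P436A. The test thus also reads the density that chose the block, so ERG form and position cannot be told apart.

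Replicate 1 supplied 45 of the 47 sites. Without it, the values with own EWS lists were 2 of 19 against 0 of 71, and with the wild-type EWS list for both the odds ratio turned to 0.443 (Fisher's exact adjusted p = 0.594). The test compares lists and not conditions, since each EWS condition had a single one.

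The 2 RWPE1 EWS lists had 20 sites of the block in common. Among the EWS peaks with P436A 20 of 79 lay at a wild-type EWS peak (25.3%, 16.2% to 36.4%), against 4.48% of that list, and 61 of 79 lay within 10 kb of one, against 16.9%. Seen from wild-type EWS these were 20 of 561 peaks (3.57%, 2.19% to 5.45%), against 1.40%. The block supplied 25% of all such shared peaks, while it held 4.42% of the EWS list with P436A and 9.84% of the wild-type EWS list. Shares with the wild-type EWS list were 24.5% in replicate 1, 21.1% in the mutant ERG list and 25.3% in the EWS list of mutant cells, and 10.5% in replicate 2, whose interval of 1.30% to 33.1% takes in the other values. All 20 shared peaks were in the upper interval. EWS with P436A also had 5 of its 79 peaks at a replicate 1 peak (6.33%, 2.09% to 14.2%), against 1.51% of its list, which made up 2.72% of the 184 replicate 1 members, against 1.42%.

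**Figure D4:**
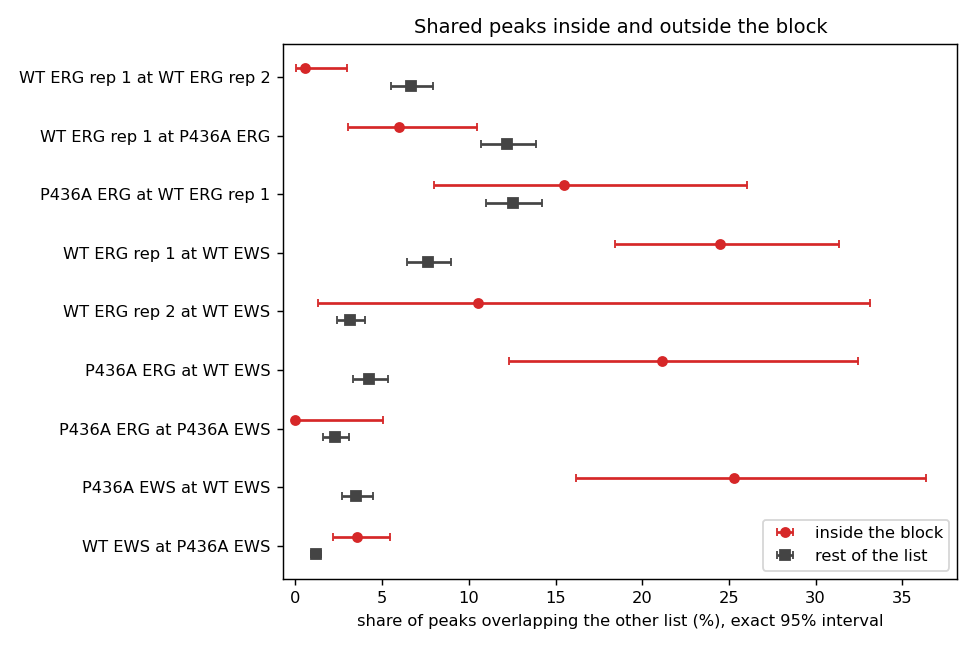
Share of the peaks of one list that overlap a peak of another (x axis, %), inside the block (circles) and in the rest of the first list (squares), with exact 95% intervals. Shares with wild-type EWS lie near 21% to 25% inside for replicate 1, ERG P436A and EWS with P436A. That of replicate 1 with replicate 2, which has only 19 block peaks, is 0.543% inside. Seen from replicate 2, not drawn, it is 5.26% inside and 5.95% in the rest of the list.

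Few sites recurred in several lists. Merging all members gave 823 separate regions, of which 738 were in 1 list, 76 in 2, 9 in 3 and 0 in more. Regions in 2 or more lists made up 10.3%, against 7.24% of the merged regions of the whole series, and those in 3 or more made up 1.09% against 0.687%. These sets differ in make-up. The whole series held 17212 VCaP and 13089 RWPE1 peaks, and the block 3 and 914. By far the most frequent kind was a wild-type EWS peak alone (486 regions), followed by replicate 1 alone (129), EWS with P436A alone (57) and ERG P436A alone (48). The most frequent pair was replicate 1 with wild-type EWS (38 regions), then the 2 EWS lists (17) and wild-type EWS with ERG P436A (11).

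The only region in all 3 ERG lists of RWPE1 lay at 199241361 to 199242652 and had no EWS peak. Replicate 1 listed it as 1292 bp wide and as the 6th of its peaks, replicate 2 as 546 bp wide and as the 84th, and ERG P436A as 489 bp wide and as the 4th. It was the first listed block peak of replicate 1 and of ERG P436A. The nearest EWS peaks were 8.24 kb from the replicate 1 centre in wild-type cells and 4.24 kb in P436A cells.

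Another 4 regions joined replicate 1, wild-type EWS and ERG P436A. They lay at 197059352 to 197061589, 198052237 to 198053426, 199825781 to 199826813 and 201142426 to 201143196. The first of these was the widest, 2238 bp, and its replicate 1 and ERG P436A peaks did not touch each other but both touched the wild-type EWS peak. At 201142426 to 201143196 the EWS peak was the 128th of 5703 listed and the replicate 1 peak the 1186th of 1901. A further 3 regions joined replicate 1 with both EWS lists, at 196482296 to 196482984, 196873027 to 196873574 and 199937332 to 199938134. At the first of them the P436A EWS peak was the 70th of its list and the wild-type EWS peak the 4834th, in lists of 1786 and 5703 peaks. List order is not documented as a ranking, so positions are given to identify peaks only.

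All 3 VCaP ERG peaks lay in the last megabase of the block, where replicate 2 and ERG P436A were also fullest. One, at 201474521 to 201475127, overlapped a replicate 1 and an ERG P436A peak, with centres 0.031 and 0.0655 kb away, and no EWS peak. Over the whole VCaP ERG list 2.11% of peaks overlapped replicate 1 and 1.49% overlapped ERG P436A. The others, at 201566623 to 201567287 and 201951782 to 201952899, overlapped none. For the latter the nearest wild-type EWS centre was 1.86 kb away and the nearest replicate 2 centre 28.1 kb.

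Replicate 2 had its first listed and widest block peak, 1142 bp, at 201980692 to 201981833, the 31st of its list, with further peaks at 201982782 to 201983445 and 201986357 to 201986939. None of these 3 overlapped a peak of another list, although ERG P436A centres lay 2.42 to 7.80 kb away and replicate 1 centres 1.22 to 6.61 kb away. Its 2 peaks with wild-type EWS were at 197669749 to 197670463 and 201230595 to 201231074. Of the 19 replicate 2 peaks, 16 overlapped no peak of the other 6 lists. Over the whole replicate 2 list, shares ran from 2.15% with EWS of P436A cells to 6.81% with ERG P436A. Most peaks of that list thus stood alone anywhere, and this count is not a trait of the block.

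The first listed EWS peaks of the block had no ERG peak, as was true of most EWS peaks there. A replicate 1 peak lay at 8.02% of wild-type EWS block peaks (3.03% of the list) and at 6.33% of those with P436A (1.51%). The first listed wild-type EWS peak of the block, 197571132 to 197572059, was the 36th of its list, and the nearest replicate 1 centre was 2.58 kb away. The widest, 2370 bp at 199651532 to 199653901, was the 73rd, and no other list had a peak there. EWS with P436A was led by 198334584 to 198335075, the 10th of its list, which also had a wild-type EWS peak. The widest replicate 1 member, 1719 bp at 197857801 to 197859519, was the 1097th listed and had no peak of another list.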

How the data were processed

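Per the labels' protocols, DNA was sheared to a length near 150 nucleotides before library selection at 200 to 300 nucleotides. The authors aligned reads to hg19 with Bowtie2 (stated version 0.12.8), per the submitters' processing notes. How peaks were called, and against which control, is not given in the sources used here. The 7 deposited lists have 3 columns (chromosome, start, end) and no score, so depth is unknown and intervals cover counting error only. The 3 input samples were not used here. Starts were read as 0-based and are printed 1-based.

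Shares carry exact Clopper-Pearson 95% intervals. The 7 Fisher tests were two-sided and adjusted by Benjamini-Hochberg. The one on wild-type and mutant ERG with own EWS lists reads the peak density that chose the block, so only its values are given. The other tests of shared sites used a common list, whose density still varied along the block. In them ERG list and position in the block cannot be told apart. Distances are between centres. The limit allowed by a count of 0 is 3 counts. Regions named were those in most RWPE1 lists (up to 10, ties by position), every VCaP peak, and the first listed and widest peak of each RWPE1 list. The 3 replicate 2 peaks near 202 Mb and its 2 peaks with EWS were named after their values were seen, and 2 regions reached by ties are not described. All 26 gene symbols looked up matched RefSeq. The block, its members and the lists compared were chosen with earlier results of these data known. Overlap counting was tested on simulated lists. Python 3.11.15, NumPy 2.4.6, SciPy 1.17.1 and Matplotlib 3.10.9 were used.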

Additional observations from a re-analysis of the deposited data

How the results depend on the processing

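Overlap was recounted with a reciprocal overlap of 0.5, with centres within 500 bp, with peaks set to 500 bp, in the upper interval only, and in the first listed 50% of each list. ERG with EWS from own lists, a difference of 23.3 percentage points between wild-type and P436A, was 14.9 to 24.4 points under these 5. With the wild-type EWS list cut to 1786 peaks, an alternative added after the data were seen, it was 13.4 points. Leaving out each replicate gave 10.5 and 24.5 points, the first without replicate 1. None of these settings removes the difference in EWS density that chose the block, since even the cut list kept 287 block peaks against 79. With the wild-type EWS list for both, leaving out each replicate gave odds ratios of 0.443 and 1.21, and the cut list gave 2.58 (Fisher's exact adjusted p = 0.149). ERG P436A at replicate 1 against replicate 2 peaks turned from 1.14 to 0.713 with the reciprocal overlap and to 0.717 with the first listed 50%. The width comparison of replicate 1 lost its call with a limit of 1000 bp (odds ratio 0.831) and against the rest of chromosome 1 (0.618). That of replicate 2 turned to 1.24 at 600 bp and 2.38 at 1000 bp. The causes were not tested. With the reciprocal overlap, replicate 1 shared 0% of its block peaks with replicate 2 and 15.2% with wild-type EWS. Counts in the lower interval alone were 0 for VCaP ERG, 22 for replicate 1, 0 for replicate 2, 81 for wild-type EWS, 3 for ERG P436A and 4 for EWS with P436A. In the first listed 50% they were 75 for replicate 1, 11 for replicate 2, 40 for ERG P436A and 52 for EWS with P436A. Counting members by any overlap changed no count. No paired analysis was possible because only 1 group has replicate lists.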
